A study of Drosophila melanogaster with 3 samples.

Results

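These data place the protein encoded by CG1529, a predicted zinc finger protein of Drosophila melanogaster, on embryonic chromatin, and the peaks described here are those just upstream of a promoter annotated in 1 direction only. A peak belongs to them where its summit lies 1 to 500 bp upstream, by strand, of the nearest transcription start site (TSS). Peaks that lie between head-to-head TSSs of 2 genes, both within 500 bp, are left out. By this rule 851 of the 3905 distinct peaks in the authors' joint list were upstream one-way promoter peaks (21.8%, exact 95% interval 20.5 to 23.1), and they were nearest to the TSSs of 784 genes. The other peaks were 508 between head-to-head TSSs (divergent pair peaks), 268 at or downstream of the nearest TSS, and 2278 beyond 500 bp of any TSS.

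The single group consisted of whole embryos of mixed sex, 0 to 14 h old, from a transgenic line that makes CG1529 with GFP fused to its C-terminal end. It was assayed by chromatin immunoprecipitation and sequencing (ChIP-seq) in 3 libraries, called biological replicates 1, 2 and 3 in the labels. The antibody label names CG1529, while the free text calls each library an input control, and the file listings show each library's peaks called against 1 separate shared control. The libraries were therefore read as ChIP libraries, and there was no second condition. Whole embryos of this age mix many cell types, so binding in few cells and weak binding in many cannot be told apart.

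A one-way promoter has a TSS for transcription in one direction, with the gene body downstream and regulatory sequence upstream. In flies the stretch just upstream of an active TSS is commonly depleted of nucleosomes and rich in A and T, and many sequence-specific factors, zinc finger proteins among them, contact DNA there. Core promoter elements such as the TATA box and the initiator sit at fixed places near the TSS, while elements such as DRE and Ohler motif 1 are typical of housekeeping genes.

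The sequences under the strongest of these peaks were short of G and C and held long runs of A and T. Each line below gives the 101 bases centred on a summit, read 5′ to 3′ on the strand of the gene from the dm6 genome. Capitals mark runs of 6 or more bases that are all A or T. They come from the strongest peaks that each of the 3 libraries held among its own 3921 strongest peaks, and are shown for their A/T content.

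Ugalt: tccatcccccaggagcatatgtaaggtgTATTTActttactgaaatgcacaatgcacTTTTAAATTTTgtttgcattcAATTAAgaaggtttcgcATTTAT
CG14100: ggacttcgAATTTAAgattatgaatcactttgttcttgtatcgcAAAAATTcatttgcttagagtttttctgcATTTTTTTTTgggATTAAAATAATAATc
CG18549: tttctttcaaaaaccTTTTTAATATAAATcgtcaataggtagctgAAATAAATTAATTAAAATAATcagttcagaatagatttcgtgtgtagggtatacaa
ph-p: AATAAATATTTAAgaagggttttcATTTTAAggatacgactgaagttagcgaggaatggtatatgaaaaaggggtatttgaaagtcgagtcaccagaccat
CG31145: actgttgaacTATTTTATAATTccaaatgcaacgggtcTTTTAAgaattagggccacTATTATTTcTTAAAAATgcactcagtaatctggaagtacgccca
RluA-1: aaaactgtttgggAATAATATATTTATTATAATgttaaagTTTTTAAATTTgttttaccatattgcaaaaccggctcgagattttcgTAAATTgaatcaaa
CG1635: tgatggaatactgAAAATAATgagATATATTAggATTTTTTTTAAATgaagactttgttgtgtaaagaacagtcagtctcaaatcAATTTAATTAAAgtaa
lncRNA:CR31044: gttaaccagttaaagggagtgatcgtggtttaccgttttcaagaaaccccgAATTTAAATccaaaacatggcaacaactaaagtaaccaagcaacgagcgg
E23: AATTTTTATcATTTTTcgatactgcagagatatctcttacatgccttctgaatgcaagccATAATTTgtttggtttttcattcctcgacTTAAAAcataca
gish: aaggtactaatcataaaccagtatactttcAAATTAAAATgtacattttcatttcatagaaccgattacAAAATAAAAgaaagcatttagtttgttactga

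The windows for Ugalt (chrX:2703844-2703944, minus strand) and CG14100 (chr3L:19590561-19590661, minus strand) lie 42 and 87 bp upstream of the TSS, measured at the summit. Those for CG18549 (chr3R:12449132-12449232, plus strand) and ph-p (chrX:2137266-2137366, minus strand) are centred 114 and 461 bp upstream. The RluA-1 window (chr2L:10474480-10474580, minus strand), 181 bp upstream, has a G+C content of 23.8% and an A/T run of 20 bases. The CG18549 window has 24.8% G+C and an A/T run of 21 bases, the longest of the 10. The lncRNA:CR31044 window (chr3R:29214398-29214498, plus strand) stands apart, with 41.6% G+C and a single run of 9 bases in capitals. The remaining windows are CG31145 (chr3R:23669785-23669885, minus strand), CG1635 (chr3R:31588462-31588562, plus strand), E23 (chr2L:3355008-3355108, minus strand) and gish (chr3R:16280669-16280769, plus strand), centred 161 to 229 bp upstream.

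The strongest peaks of the joint list also ranked high in every library. That list was made from these libraries, so high ranks are partly built in. The signal is the authors' measure of peak strength, in column 7 of each list, and it ranks peaks within 1 list only. The highest signal among these peaks, 3098 in the joint list, lay in an intron of px, a gene of wing vein patterning, 207 bp upstream of an internal TSS. Its ranks were 2, 3 and 2 of 3921 in replicates 1, 2 and 3. Ugalt, a UDP-galactose transporter gene, had a peak of signal 2694 with ranks 5, 6 and 7. CG14100 had one of 2660, ranked 1, 8 and 8, so that it was the strongest peak of all in replicate 1. The peak 461 bp upstream of an internal TSS of ph-p, which encodes a subunit of Polycomb repressive complex 1, had ranks 8, 19 and 23.

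Of the 30 strongest peaks held by all 3 libraries, the lowest rank in any library was 129, for Gapdh2 in replicate 1. No upstream one-way promoter peak stronger than these 30 was missing from a library. Their summits lay 42 to 461 bp upstream (median 175 bp), 15 of them intergenic, 9 in an intron and 2 in an exon of their own gene, and 4 in an intron of another gene. The mean G+C content at these 30 summits was 28.2%, with a range of 19.8 to 41.6%. An alternative TSS inside the gene was the nearest one for 11 of the 30.

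**Figure D1:**
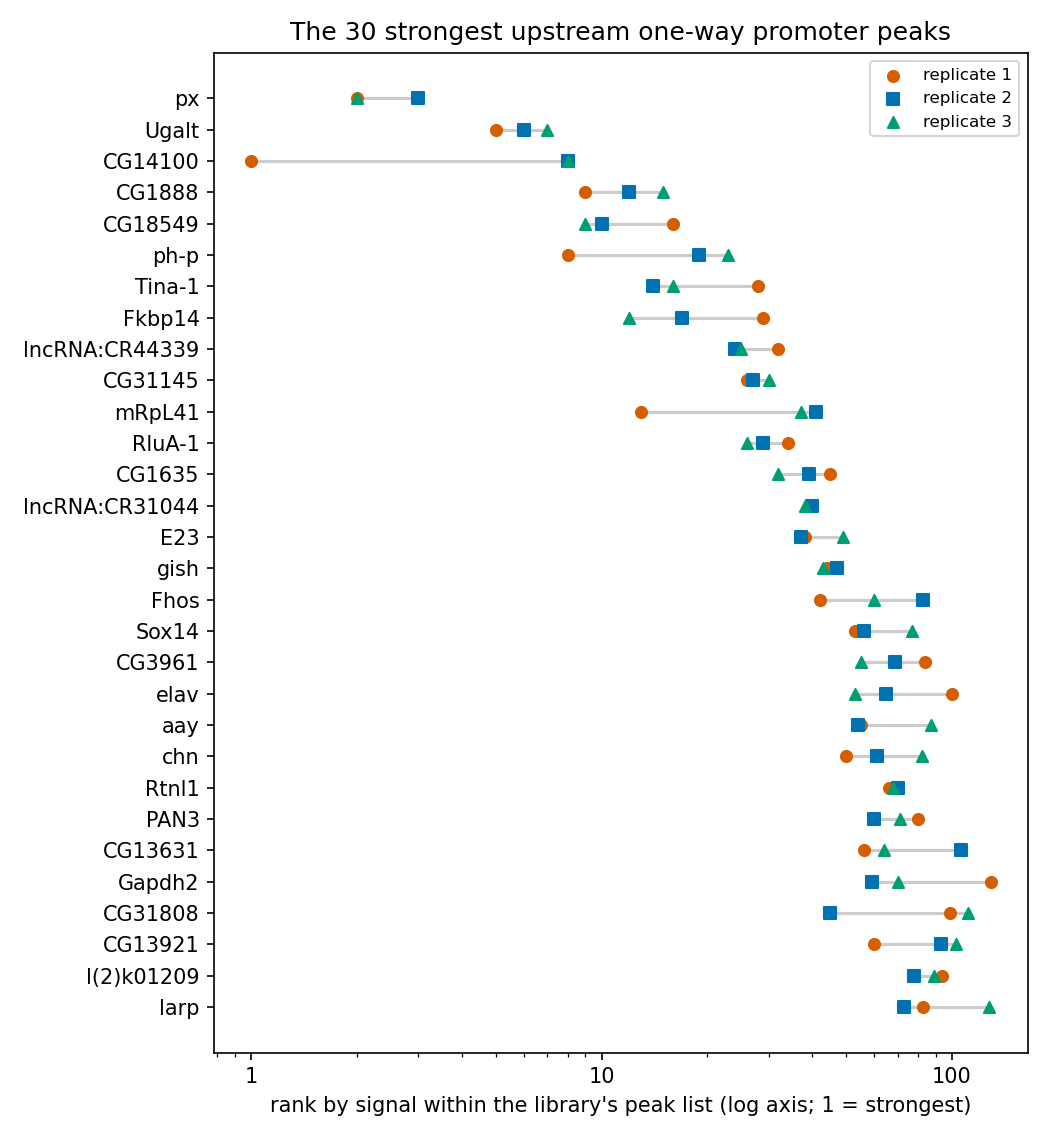
Ranks by signal of the 30 strongest upstream one-way promoter peaks in the 3 libraries (log axis, 1 is the strongest of 3921; 1 symbol per library, grey lines join the lowest and highest rank). All ranks lie between 1 and 129, and the px peak ranked 2, 3 and 2. The peaks were chosen by signal in the joint list, which was made from these libraries.

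The genes of these 30 peaks had varied roles. Several act in neural or sensory development: elav, a neuronal RNA-binding protein gene, had a signal of 1282 (ranks 100, 65 and 53), and chn, a zinc finger factor of sensory organs, one of 1275 (ranks 50, 61 and 82). E23, an ABC transporter gene induced early by the steroid ecdysone, had 1488 (ranks 38, 37 and 49), and Sox14, an ecdysone-induced HMG-box factor gene, had 1306 (ranks 53, 56 and 77). Metabolic genes were also present: aay, a phosphoserine phosphatase gene, had 1280 (ranks 55, 54 and 87), and Gapdh2, a glycolytic enzyme gene, had 1206 (ranks 129, 59 and 70). Genes of RNA handling were mRpL41, a mitochondrial ribosomal protein gene (1760, ranks 13, 41 and 37), PAN3, a deadenylase subunit gene (1243, ranks 80, 60 and 71), and larp, an RNA-binding protein gene (1147, ranks 83, 73 and 128). Membrane and cytoskeletal genes were Rtnl1, a reticulon of the endoplasmic reticulum (1264, ranks 66, 70 and 68), and Fhos, a formin (1340, ranks 42, 83 and 60). The nearest TSS was that of a noncoding RNA for 2 of the 30.

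The summits gathered about 200 bp upstream of the TSS and thinned out on both sides. The median distance was 202 bp in the joint list, with quartiles of 127 and 313 bp, and the libraries gave 215, 188.5 and 201.5 bp. Since the rule fixes the side and the limit of 500 bp, only the place within that window is a measurement. In the joint list 154 of 851 summits (18.1%, exact interval 15.6 to 20.9) lay 151 to 200 bp upstream, the fullest 50 bp step. The same step held 14.9%, 15.8% and 17.3% in the libraries, and in replicate 1 the step of 101 to 150 bp held slightly more (15.4%). The step nearest the TSS, 1 to 50 bp, held 66 summits (7.76%), against 5.81%, 9.89% and 8.47% in the libraries. The step farthest away, 451 to 500 bp, held 48 (5.64%).

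**Figure D2:**
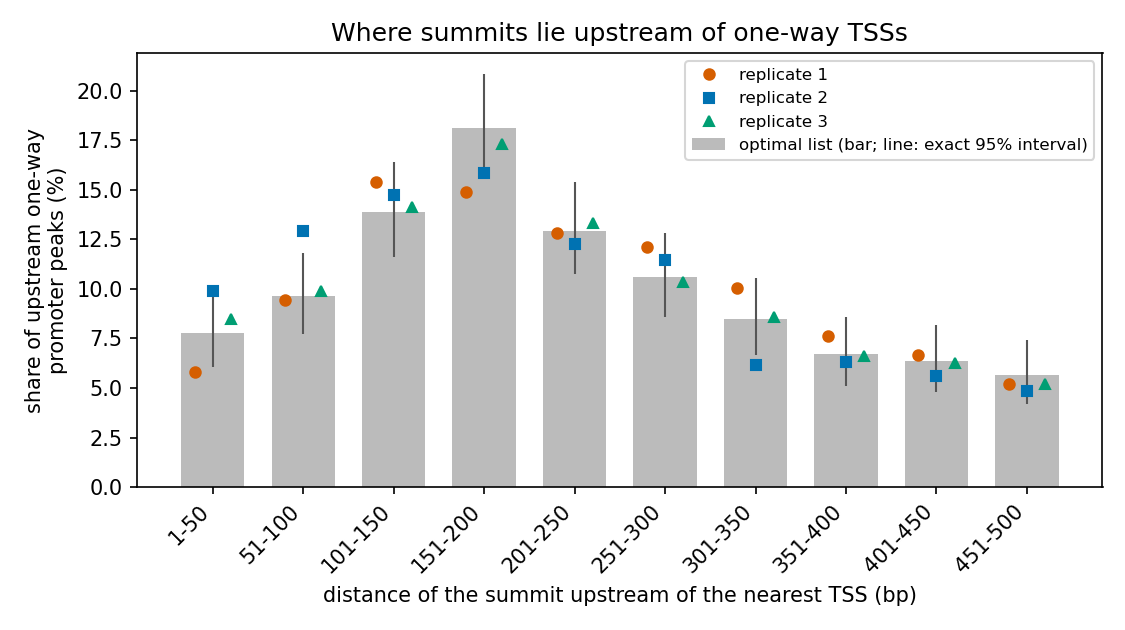
Share of upstream one-way promoter peaks in each 50 bp step upstream of the nearest TSS, as grey bars for the joint (optimal) list with exact 95% intervals and as symbols for the 3 libraries. The step of 151 to 200 bp held 18.1% of the joint list, and the 1 to 50 bp step held 7.76%.

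In the joint list, peaks in the middle of this window were stronger than those at its ends. Median signal was 340 at 151 to 200 bp and 347 at 251 to 300 bp. It was 244 at 1 to 50 bp and 238 at 451 to 500 bp. In replicates 1, 2 and 3 the median was 116, 94.8 and 127 at 151 to 200 bp. The 1 to 50 bp step had 84.7, 63.4 and 90.2. At 451 to 500 bp the values were 90.8, 65.7 and 120. In replicate 3 the far end was thus not below the 119 at 301 to 350 bp. Distance and signal had a Spearman correlation of 0.07997 over the 851 peaks, with lower strength at both ends of the window. Just inside the limit, at 476 to 500 bp, there were 20 peaks with a median signal of 247, and just outside it, at 501 to 525 bp, 19 with a median of 375. The cut therefore does not fall at a drop in strength. At the other edge, 8 summits lay 1 to 5 bp upstream, with a median signal of 243, and 1 summit, of signal 191, lay exactly on a TSS and was left out.

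Replicates could be set against each other by the overlap of peaks. Of the 851 peaks, 603 (70.9%, exact interval 67.7 to 73.9) overlapped by at least 1 bp 1 of the 3921 strongest peaks in each of the 3 libraries. Another 168 did so in 2 libraries, 72 in 1 and 8 in none. The joint list was made from these libraries, so some overlap is built in. The share in all 3 was 59.8% for divergent pair peaks (55.4 to 64.1), 52.2% for peaks at or downstream of the TSS (46.1 to 58.4), and 64.4% for peaks beyond 500 bp (62.4 to 66.4). All such intervals cover counting error only, and neighbouring peaks are not independent. Set against the whole relaxed lists of 30000 rows, where 816, 848 and 850 of the 851 peaks had an overlapping peak in replicates 1, 2 and 3, the median shift of the summit from the joint list was 22, 17 and 13 bp. Of these summits 78.3%, 77.1% and 82.1% lay within 50 bp. Among the strongest 3921 peaks, 46.1% of the 851 had a summit within 50 bp in all 3 libraries at once. For 64.6% of the 851, a strongest peak in all 3 libraries was again an upstream one-way peak of the same gene.

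Support followed strength, and the classes differ in strength. In the 5 equal groups of the joint list by signal, strongest first, the share in all 3 libraries was 99.2%, 95.5%, 81.8%, 39.9% and 11.0% for upstream one-way promoter peaks, against 99.2%, 97.1%, 84.4%, 40.6% and 10.9% for peaks beyond 500 bp. At like strength the support of these 2 classes was thus nearly the same. In the same order, divergent pair peaks had 98.3%, 85.8%, 60.7%, 31.4% and 8.51%. Peaks at or downstream of the TSS had 95.5%, 87.8%, 67.2%, 25% and 12.3%. Both classes were below upstream one-way promoter peaks at like strength, except for peaks at or downstream of the TSS in the weakest group. Most of the exact intervals overlapped. All of the strongest 170 upstream one-way promoter peaks were held by all 3 libraries. The next groups of 170 had 166, 153 and 93 so held, and the weakest 171 had 21. Summits within 50 bp of the TSS had the lowest support among the steps of distance, 35 of 66 (53.0%), and had a low median signal as well, while at 151 to 200 bp it was 119 of 154 (77.3%). The weakest group had signals of 157 to 188.

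Upstream one-way promoter peaks made up more of the strong peaks than of the weak ones. They were 263 of the strongest 781 peaks of the joint list (33.7%, exact interval 30.4 to 37.1) and 145 of the weakest 781 (18.6%, 15.9 to 21.5), and 35 of the strongest 100. The share differed in the same direction in 3 of 3 libraries: they were 32.4%, 33.3% and 32.9% of the strongest 784 peaks in replicates 1, 2 and 3, and 16.5%, 20.2% and 17.6% of the weakest 784. Their median signal was 289 in the joint list, against 269 for divergent pair peaks, 231 for peaks at or downstream of the TSS and 245 for peaks beyond 500 bp.

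**Figure D3:**
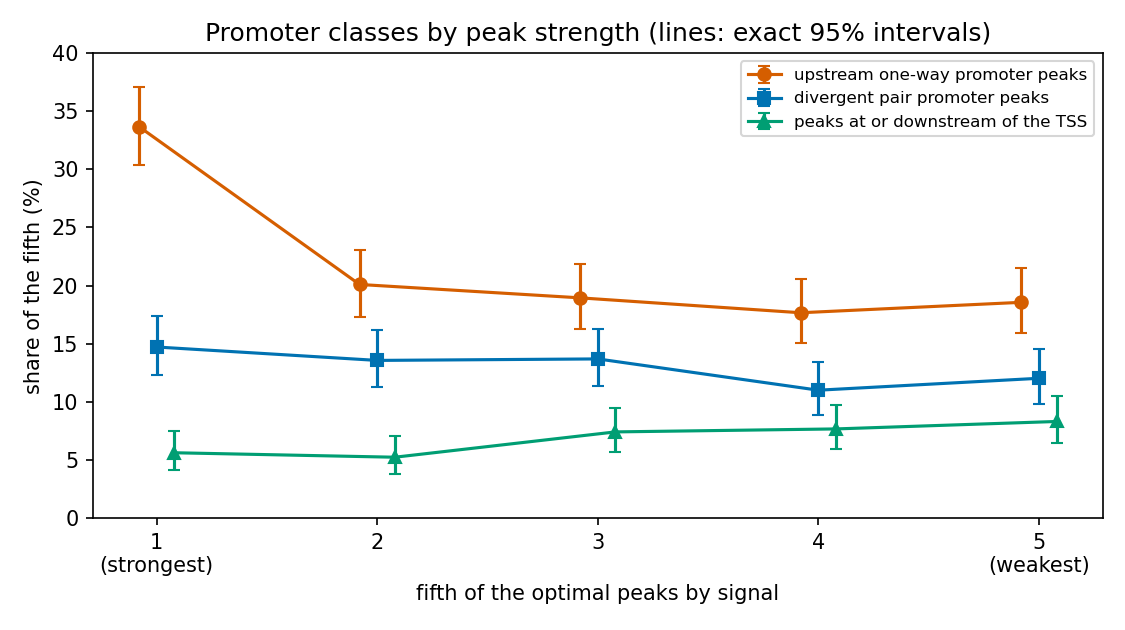
Share of each promoter class in 5 equal groups of the joint list ranked by signal, strongest first, with exact 95% intervals. Upstream one-way promoter peaks made up 33.7% of the strongest 781 peaks and 18.6% of the weakest 781, while peaks at or downstream of the TSS went the other way, with 5.63% of the strongest and 8.32% of the weakest.

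Within each library the rank percentile, where 100 is the strongest peak, also put these peaks highest. The median percentile of upstream one-way promoter peaks was 60.3, 57.0 and 60.2 in replicates 1, 2 and 3, against 48.8, 39.5 and 39.3 for peaks at or downstream of the TSS. The difference was 16.6 ± 4.76 points (SD, n = 3), positive in 3 of 3 libraries (exact sign-flip permutation test over libraries, two-sided, p = 0.25). With 3 libraries 0.25 is the smallest p this test can give, so no comparison here can pass 0.05. Against divergent pair peaks, at 60.2, 50.6 and 51.5, the difference was 5.08 ± 4.46 points (SD, n = 3; exact permutation p = 0.25). It was close to 0 in replicate 1, at 0.115, and 6.35 and 8.76 in the other libraries, so it hardly exceeded the spread between them, and without replicate 3 the mean was 3.23. Against peaks beyond 500 bp it was 11.3 ± 4.11 points (SD, n = 3; exact permutation p = 0.25). Median width was the same in these classes, 436 bp in the joint list, the commonest width there. Narrower peaks were 41.8% of upstream one-way promoter peaks, against 30.7% of divergent pair peaks, 25.4% of peaks at or downstream of the TSS and 31.0% of peaks beyond 500 bp. The library differences in that share were 8.28 ± 2.29, 13.6 ± 3.39 and 10.1 ± 2.63 points (SD, n = 3 each), higher in 3 of 3 libraries each time. The classes differ in strength, and the share of narrower peaks was not compared at like strength.

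The summits sat in a dip of G+C content. Over the 101 bases at the summit the mean was 33.4% in the joint list, against 43.3% in windows of the same length 300 bp to either side. The libraries gave 33.3%, 35.3% and 34.0% at the summit, against 43.7%, 43.1% and 43.5% in the flanks. The difference was −9.21 ± 1.29 points (SD, n = 3), lower in 3 of 3 libraries (exact sign-flip permutation p = 0.25). The flanks were not alike: the upstream one had 40.2% and the downstream one, toward the gene, 46.3%, and both were above the summit.

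The dip went below the level of one-way promoters in general. Windows placed 202 bp upstream of all 18245 one-way TSSs averaged 38.3% G+C, and 25.5% of them were under 30%. Among the 851 summits 44.4% were under 30%. Windows 202 bp upstream of the TSSs with such a peak averaged 35.4%, between the summits and the TSSs at large. Composition changed steeply with distance: it was 46.1% at summits 1 to 50 bp upstream, 37.6% at 51 to 100 bp, 33.0% at 101 to 150 bp and 30.4% at 151 to 200 bp, and 36.0% at 451 to 500 bp. At the middle of those same steps the other one-way TSSs had 43.0%, 41.1%, 39.4%, 38.5% and 39.4%. The summits were thus poorer in G+C than other promoters in every step except the one nearest the TSS, where they were richer.

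**Figure D4:**
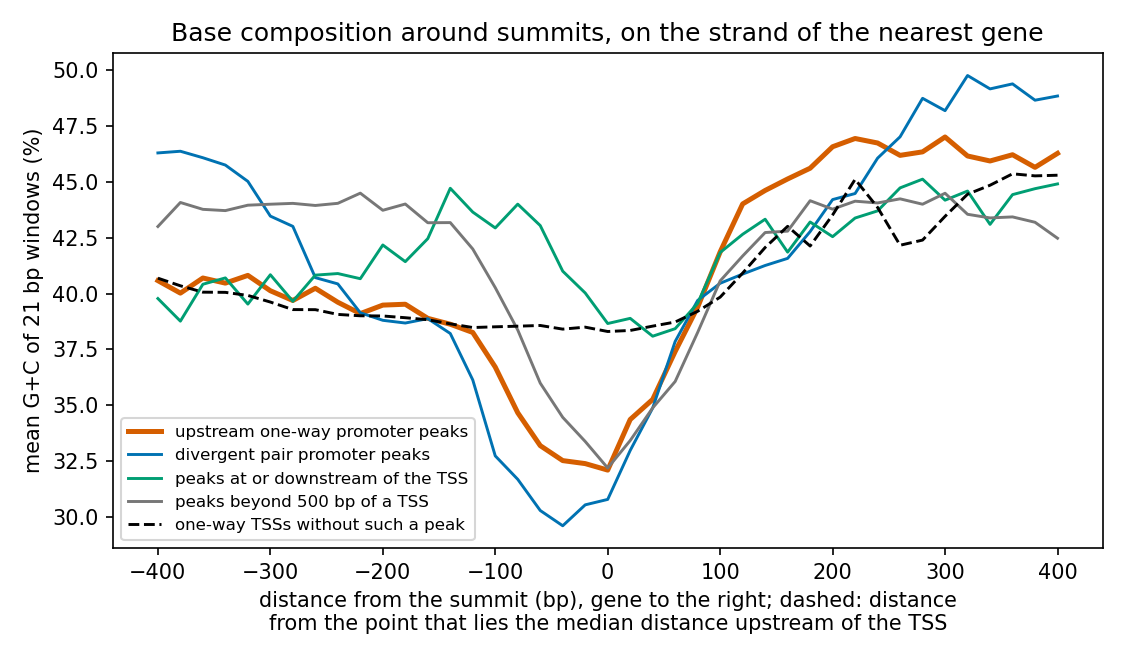
Mean G+C content of 21 bp windows by distance from the summit, with the gene to the right, for upstream one-way promoter peaks and the other classes of the joint list. The dashed line shows one-way TSSs without such a peak, placed by the point 202 bp upstream. The orange line falls to 32.1% at the summit and stands near 40% on its left and 47% on its right, while the dashed line is at 38.3% at the same point.

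Against the other classes, the dip was shared with most peaks. In the libraries the summits of upstream one-way promoter peaks were −5.34 ± 1.38 points from those at or downstream of the TSS (SD, n = 3; lower in 3 of 3, exact permutation p = 0.25). They were 1.83 ± 0.192 points above those of divergent pair peaks (SD, n = 3; higher in 3 of 3, exact permutation p = 0.25). From peaks beyond 500 bp they differed by 0.0408 ± 0.545 points (SD, n = 3), less than the spread between libraries, with −0.364, 0.661 and −0.174 in replicates 1, 2 and 3 and so no common direction. Stronger peaks were poorer in G+C: the strongest 170 averaged 30.3%, the following groups 31.5%, 33.6% and 34.2%, and the weakest 171 averaged 37.2%. G+C at the summit and signal had a Spearman correlation of −0.241 over the 851 peaks, and −0.197, −0.280 and −0.269 over the 826, 890 and 850 peaks of the libraries. These points share the libraries and the base composition of promoters. Runs of at least 12 bases of A or T were present in 39.8% of the summit windows, against 16.9% of their flanks and 26.1% of one-way TSS windows. Divergent pair summits had them in 48.4%, those at or downstream of the TSS in 22.8% and those beyond 500 bp in 32.2%.

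Among 14 short motifs searched on both strands within 50 bp of the summit, those made of A and T were the commonest. Shares are of the 851 summits, of their flanks, and of the 18245 windows 202 bp upstream of one-way TSSs. A match of letters is a description and not a binding site. The lines below show 1 further peak for each of 6 motifs, chosen among the stronger ones holding it, with 1 copy of the motif in capitals.

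CG3961: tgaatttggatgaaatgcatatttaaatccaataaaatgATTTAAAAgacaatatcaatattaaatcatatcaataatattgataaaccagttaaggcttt
numb: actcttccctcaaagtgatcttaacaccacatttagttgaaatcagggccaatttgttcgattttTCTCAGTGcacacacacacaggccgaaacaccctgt
eEF1gamma: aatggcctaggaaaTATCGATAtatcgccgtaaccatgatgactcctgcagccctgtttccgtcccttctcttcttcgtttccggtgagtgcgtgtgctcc
Rtnl1: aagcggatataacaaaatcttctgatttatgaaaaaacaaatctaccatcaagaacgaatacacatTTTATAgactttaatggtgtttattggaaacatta
RpL30: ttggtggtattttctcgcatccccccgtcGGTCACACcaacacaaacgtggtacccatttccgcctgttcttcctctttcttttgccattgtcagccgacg
CG7694: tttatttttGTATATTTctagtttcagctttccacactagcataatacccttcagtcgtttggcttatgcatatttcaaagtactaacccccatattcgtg

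The A/T word ATTTAAAA, marked at CG3961 (chr3L:18890717-18890817, minus strand), was present in 66 summits (7.76%), against 1.70% of flanks and 4.34% of TSS windows. It was in 12.9% of the strongest 170 peaks and 4.68% of the weakest 171, in the order of the G+C content of those groups. TATAAA, marked on the other strand at Rtnl1 (chr2L:4997625-4997725, minus strand), was in 221 summits (26.0%), against 10.8% of flanks and 17.0% of TSS windows. At the distance of most summits this is not the place of a TATA box, which lies close to the TSS. The homeodomain core TAATTA was in 9.87%, against 4.99% of flanks and 8.40% of TSS windows. Ohler motif 6 in the short form GTATNTTT, marked at CG7694 (chr3R:18584140-18584240, plus strand), was in 54 summits (6.35%), against 2.94% of flanks and 4.23% of TSS windows. Divergent pair summits had each of these more often: ATTTAAAA in 8.27%, TATAAA in 27.8%, TAATTA in 14.0% and GTATNTTT in 7.48%. In the same order, summits beyond 500 bp had 5.75%, 21.1%, 9.48% and 5.66%. Those at or downstream of the TSS had 2.99%, 13.4%, 6.34% and 3.36%.

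The other motifs were in 6.58% of summits or fewer. CACTGAGA, marked on the other strand at numb (chr2L:9449636-9449736, plus strand), whose gene encodes an inhibitor of Notch signalling, was in 11 summits (1.29%), against 0.294% of flanks and 0.312% of TSS windows. Summits beyond 500 bp had CACTGAGA in 1.58%, those at or downstream of the TSS in 0.746% and divergent pair summits in 0%. DRE (TATCGATA), marked at eEF1gamma (chr3R:29220117-29220217, plus strand), a translation elongation factor gene, was in 9 (1.06%), against 3.35% of divergent pair summits and 0.614% of TSS windows. Ohler motif 1 (GGTCACAC), marked at RpL30 (chr2L:19009208-19009308, minus strand), a ribosomal protein gene, was in 6 (0.705%), against 0.294% of flanks and 0.323% of TSS windows. Ohler motif 7 in the short form CANCNCTA was in 34 (3.995%), against 2.82% of flanks. GAGAGAG, the GAGA factor site, was in 2.59% of summits, against 5.70% of flanks and 2.57% of TSS windows. The E-box CAGCTG was in 3.41%, against 5.17% and 3.88%, and the initiator TCAGTT in 6.58%, against 9.46% and 6.70%. These 3 were thus lower than in the flanks but close to the TSS windows. The Zelda site CAGGTAG and the short forms AGGTGGCG for CTCF and TTGCATAC for Su(Hw) were in 3 summits each (0.353%). In that order, flanks had 0.470%, 0.353% and 0.940%, and TSS windows 0.581%, 0.236% and 0.477%. Of the 14 motifs 9 had a higher share at summits than in flanks in 3 of 3 libraries. AGGTGGCG was 1 of these, although its share in the joint list equalled that of the flanks. The A/T word and CACTGAGA had been noticed at summits in earlier results of these data.

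At the TSS itself, the 818 TSSs with such a peak less often had letters of the TATA box and more often those of the initiator than the 17429 other one-way TSSs. TATAAA on either strand 20 to 40 bases upstream of the TSS was present at 27 of 818 (3.30%, exact interval 2.19 to 4.77), against 6.13% of the others. TCAGTT within 10 bases of the TSS was present at 87 (10.6%, 8.61 to 13.0), against 6.59%. DRE within 100 bases upstream was at 17 (2.08%, 1.22 to 3.31), against 2.95%. Ohler motif 1, from 60 bases upstream to 20 downstream of the TSS, was at 24 (2.93%, 1.89 to 4.33), against 2.03%. TSSs of 1 gene share sequence, so these shares are descriptions with no test. The sets also differ in gene type: 91.8% of the peaks were nearest to a protein-coding gene, against 79.4% of all one-way TSSs. The shares were not recomputed for protein-coding TSSs alone.

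By position, these peaks were intergenic or in introns, and seldom in exons. Of the 851 summits, 445 (52.3%) were intergenic, against 49.6% of the windows 202 bp upstream of one-way TSSs. Introns of the same gene held 258 (30.3%, exact interval 27.2 to 33.5), against 16.1% of those windows. Introns of another gene held 71 (8.34%, 6.57 to 10.4), against 12.6%, and exons of another gene 35 (4.11%, 2.88 to 5.67), against 15.4%. Exons of the same gene held 42 (4.94%), against 6.36%. An alternative TSS inside the gene was the nearest for 302 peaks (35.5%, 32.3 to 38.8), against 26.7% of one-way TSSs. Peaks at such internal TSSs had a median signal of 331 and were in all 3 libraries in 75.2% of cases, against 277 and 68.5% at the most upstream TSS of a gene.

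The intergenic peaks mostly followed a gene on the same strand. The next gene upstream lay on the same strand for 292 of the 445 (65.6%, exact interval 61.0 to 70.0), at a median of 802 bp from the summit, and on the opposite strand for 153, at a median of 2236 bp. The rule removes pairs of head-to-head TSSs within 500 bp and so lowers the second count. The same share was not computed for all one-way TSSs, so these counts do not show a preference of the peaks. Protein-coding genes were nearest to 781 of the 851 peaks (91.8%), against 79.4% of one-way TSSs. Noncoding RNA genes were nearest to 64 (7.52%, against 15.9% of one-way TSSs), with a median signal of 276. tRNA genes were nearest to 5 (0.588%, against 1.27%) and a snoRNA gene to 1 (0.118%, against 1.45%). No peak lay nearest to the TSS of an snRNA, rRNA or pseudogene, which made up 0.148%, 0.543% and 1.31% of one-way TSSs. By chromosome arm the peaks were spread much like one-way TSSs: 2L held 19.6% against 19.2% of TSSs, 2R 19.4% against 20.7%, 3L 20.4% against 19.3%, 3R 22.4% against 22.9%, X 17.5% against 17.0%, and 4 held 5 peaks.

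Most genes had a single peak of this kind. Of the 784 genes, 727 had 1, 48 had 2, 8 had 3 and 1 had 4. The gene with 4 was Rtnl1, at 3 TSSs, with signals of 171 to 1264 and support from 3 libraries each time. Ptpmeg2, a protein tyrosine phosphatase gene, had 3 strong peaks at 3 TSSs, with signals of 563 to 910. Hnf4, a nuclear receptor gene, had 3 at 2 TSSs (211 to 527), Moe, the fly moesin, 3 at 3 TSSs (232 to 470), and Mhcl, a myosin gene, 3 at 2 TSSs (248 to 509). The 3 peaks of dnc, a cAMP phosphodiesterase gene, ranged from 168 to 856, and the weakest was held by 1 library. Some of these peaks overlap: 60 of the 851 shared bases with another of them, so they can be parts of 1 broader region. In all, 503 of the 784 genes (64.2%) also had such a peak in each of the 3 libraries.

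The gene lists were read against all genes, of which 784 of 18164 (4.32%) had an upstream one-way promoter peak, or 715 of 13945 protein-coding genes (5.13%). Cytoplasmic ribosomal protein genes had them at 19 of 94 (20.2%, exact interval 12.6 to 29.8), with 19.1%, 13.8% and 15.96% in the libraries. Most of these peaks sat close to the TSS: 15 of the 19 summits were within 50 bp. They made up 15 of the 66 summits there, so most summits that close belonged to other genes. Their median distance was 21 bp and their mean G+C content 46.6%. RpL30 had a signal of 506 at 21 bp (ranks 1331, 241 and 666), RpS10b one of 491 at 1 bp (ranks 1277, 356 and 555) and RpL17 one of 457 at 19 bp (ranks 684, 530 and 1019). These peaks were of middling strength, with a median signal of 267, and the summit at RpS23 lay farthest away, at 437 bp. In the same list 43 of the 94 genes were nearest to a divergent pair peak or to one at or downstream of the TSS. Over all 18164 genes, divergent pair peaks were nearest to 504 and peaks at or downstream of the TSS to 265. The upstream one-way class thus holds only part of the list's peaks.

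Translation factor genes had such peaks at 7 of 54 (13.0%, exact interval 5.37 to 24.9). The strongest was at eEF1gamma (747, 5 bp, ranks 363, 200 and 267), followed by eIF5B (345, 170 bp), an initiation factor gene, and eEF1alpha1 (283, 25 bp), an elongation factor gene. The 7 peaks had a median distance of 76 bp and a mean G+C content of 47.9%, and 3 of the 7 summits were within 50 bp of the TSS. Closeness to the TSS and high G+C were thus not particular to ribosomal protein genes. Heat shock and chaperone genes had them at 5 of 23 (21.7%, 7.46 to 43.7): Hsp27 (1135, 176 bp, ranks 85, 89 and 109), Hsp83 (868, 116 bp, ranks 352, 123 and 156), Hsp26 (455, 124 bp), Hsp22 (310, 443 bp) and Hsp68 (157, 69 bp). Hsp27, Hsp26 and Hsp22 are neighbours in 1 small heat shock gene cluster on 3L, so they are not independent. Muscle and mesoderm genes had them at 6 of 20 (30%, 11.9 to 54.3), and all 7 of their peaks were held by 3 libraries.

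Those muscle and mesoderm genes were sls, the fly titin (639, 269 bp, ranks 379, 420 and 434), Msp300, a nesprin (621, 358 bp, ranks 242, 679 and 543), tin, the heart homeobox gene (556, 208 bp, ranks 764, 327 and 443), htl, an FGF receptor (331, 408 bp), Tm1, a tropomyosin, and Act87E, an actin (231, 271 bp). The 2 peaks of Tm1, of 309 and 272, were matched by the same library peaks. Signalling ligands and receptors had them at 4 of 42 (9.52%): spi, an EGF receptor ligand (656, 278 bp), N, the Notch receptor (233, 421 bp), bnl, an FGF ligand (216, 75 bp), and htl, which is in both lists. Polycomb and trithorax genes had them at 3 of 27 (11.1%, 2.35 to 29.2), namely ph-p (1980), its duplicate ph-d (247) and Psc (200.6). Only the ph-p peak was held by all 3 libraries, and the list's share was 3.70%, 14.8% and 7.41% in replicates 1, 2 and 3. In replicate 1 it was below the 4.32% of all genes in the joint list. The 2 ph genes are near-identical neighbours, and how reads were divided between them is not stated in the sources at hand.

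**Figure D5:**
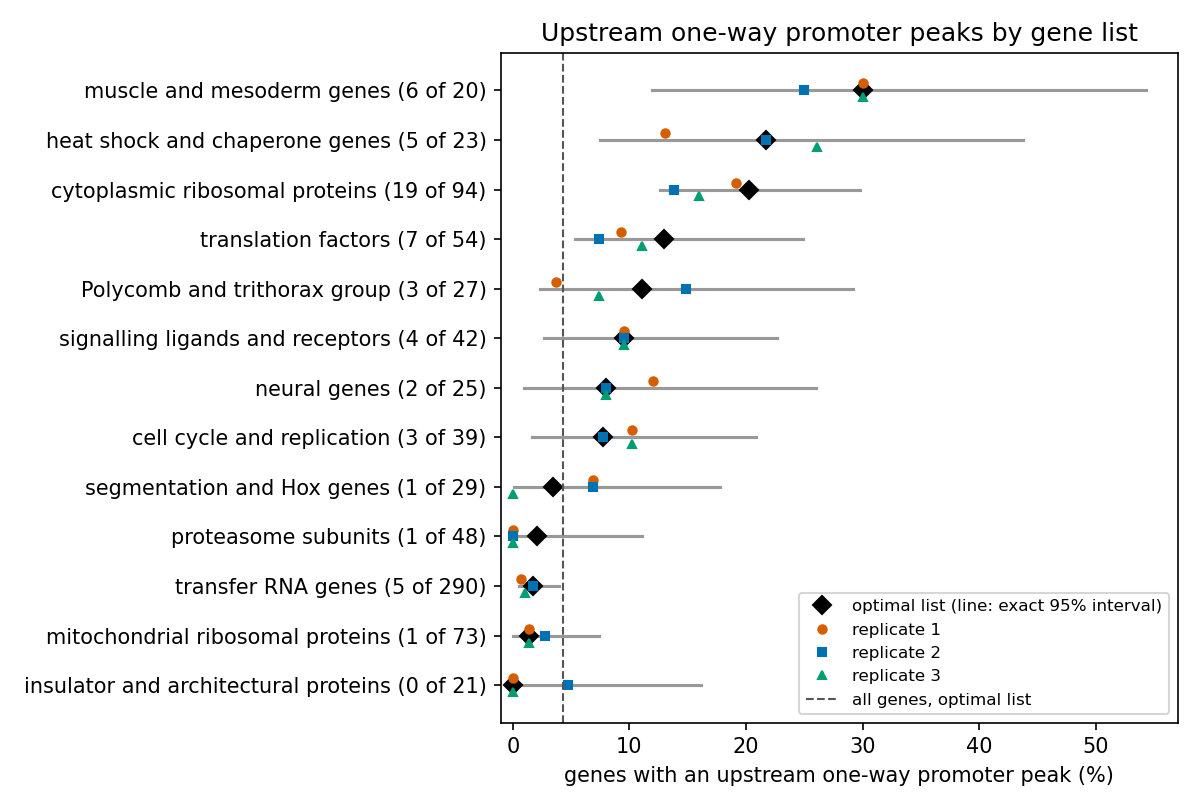
Percent of the genes in each list whose TSS was nearest to an upstream one-way promoter peak, as black diamonds with exact 95% intervals for the joint list and symbols for the 3 libraries; the dashed line is the 4.32% of all genes. Muscle and mesoderm, heat shock and cytoplasmic ribosomal protein genes lie furthest to the right, at 30%, 21.7% and 20.2%.

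Other lists were near the share of all genes or had few peaks. Among cell cycle and replication genes 3 of 39 had one (7.69%): Dp (428) and E2f1 (264), partners in the E2F factor, and fzr, an activator of the anaphase-promoting complex (157). Neural genes had them at 2 of 25 (8%), elav and scrt, a zinc finger gene (158). Segmentation and Hox genes had 1 of 29 (3.45%), bcd, the anterior morphogen (186, held by 2 libraries). Mitochondrial ribosomal protein genes had 1 of 73 (1.37%), the strong peak at mRpL41, and proteasome genes 1 of 48 (2.08%), Rpn11 (186), which none of the libraries held among its strongest peaks. tRNA genes had 5 of 290 (1.72%), the strongest 495 bp upstream of tRNA:Ile-AAT-1-9 (373). Insulator and architectural protein genes had 0 of 21, which allows a share of up to 14.3%, though 4 were nearest to a divergent pair peak or to one at or downstream of the TSS. Over all 18164 genes those classes were nearest to 504 and 265. The lists are small, share neighbours, and were not tested against each other.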

How the data were processed

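Per the file listings, 5 lists of peaks on the dm6 assembly were deposited by the authors: 1 relaxed list of 30000 rows for each library, 1 from the pooled libraries, and a joint (optimal) list of 3921 rows kept by the irreproducible discovery rate. The sources used here name no peak caller, aligner or threshold. The signal of each peak (column 7) and its −log10 q-value (column 9) are the authors' deposited values; 815 of the 851 peaks share the highest q-value, so peaks were ranked by signal. Depth in reads is unknown. The p-values of the sign-flip test concern these 3 libraries only. When all 3 differences have the same direction, this test gives its smallest possible p, whatever their size or spread. The spread between libraries is given by the SD.

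Duplicate intervals were reduced to the row of highest signal. Libraries were cut to their strongest 3921 peaks, except for summit shifts, which used the whole lists. TSSs came from Ensembl release 115 (18164 genes), and 24 peaks have a nearest TSS shared by several genes. Base composition and motifs were read from the release 6 genome with Python 3.11.15, numpy 2.4.6 and scipy 1.17.1, by code tested on simulated data. Intervals are Clopper-Pearson (95%). The limit beside a count of 0 is 3 counts of the total. The members, the 14 motifs and the 13 gene lists were chosen with earlier results of these data known. The text names the 30 strongest peaks held by all 3 libraries and up to 3 peaks per list by signal; other named genes were chosen after their values were seen. Alternatives were other TSS and motif windows, protein-coding TSSs, stronger peaks, other overlap rules and leaving out each library.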

Additional observations from a re-analysis of the deposited data

How the results depend on the processing

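The alternatives were run for the class share, distance, support, motif and gene counts, the G+C difference from the flanks and from peaks at or downstream of the TSS, and the rank differences from those peaks and from divergent pair peaks. None of these G+C and rank differences changed direction, and the tests cannot pass 0.05 under any alternative. The other class comparisons, core elements, contexts and gene lists were not recomputed. The share of upstream one-way promoter peaks, a mean of 21.8% over the libraries, was 13.6% with a TSS window of 250 bp, 26.9% with 1000 bp, 20.96% with protein-coding TSSs only, 25.3% in the stronger part of the peaks (1960 per library), 18.8% with 7842 peaks per library, 25.8% when head-to-head TSSs had to lie within 250 bp, and 19.3% with 1000 bp. Without 1 replicate it was 21.4 to 22.2%. The median distance, a mean of 202 bp, was 143.5 bp and 247 bp with TSS windows of 250 and 1000 bp, and 195 to 208 bp without 1 replicate. Support in all libraries, 70.9%, was 74.0 to 79.8% when only the 2 remaining libraries had to hold the peak, 76.4% in the stronger part, 48.3% with an overlap of at least 50% of each peak, 46.1% with summits within 50 bp, and 90.1% with 7842 peaks per library. The 784 genes became 519 with a window of 250 bp and 471 in the stronger part. The G+C difference from peaks at or downstream of the TSS ranged from −6.12 to −4.83 points without 1 replicate and was −3.17 with a window of 1000 bp. The difference in rank percentile from divergent pair peaks ranged from 3.23 to 7.56 without 1 replicate, lowest without replicate 3, and was 10.2 in the stronger part; the cause was not tested. The number of motifs above the flanks in every library, 9 of 14, was 6 with windows of 25 bp to either side. No paired analysis was possible because there was only 1 group. Unknown depth and 3 libraries limit all of these values.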

Other observations

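Genes of glycolysis, chosen after the members' values were seen, often had an upstream one-way promoter peak: 5 of 15, against 4.32% of all genes, and the same 33.3% in each of the 3 libraries. The peaks lay at Gapdh2 (1206, 157 bp upstream), Eno, the enolase gene (1060, 187 bp, ranks 141, 90 and 102 in replicates 1, 2 and 3), Hex-A, a hexokinase gene (880, 160 bp, ranks 199, 189 and 151), Ldh, the lactate dehydrogenase gene (705, 170 bp, ranks 299, 326 and 317) and Pgk, the phosphoglycerate kinase gene, which had 3 (279, 274 and 230). All 7 peaks were held by 3 libraries, and those of the first 4 genes lay 157 to 187 bp upstream. Ecdysone response and nuclear receptor genes, chosen the same way, had such peaks at 7 of 22. These were E23 (1488), Sox14 (1306), Eip75B (735 and 167), Hnf4 (527, 250.3 and 211), Eip63E (280), Hr4 (178) and ERR (159), and Hr4 and ERR were held by 1 library each. Since both lists were put together from names already seen among the peaks, these counts carry no test.

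Words of 8 bases were also ranked after the values were seen, against flanks and one-way TSS windows. ACCGGAAA was in 15 summits (1.76%), against 0.0588% of flanks and 0.280% of TSS windows, with 1.09%, 1.12% and 0.941% in the libraries. CACACTGC was in 13 (1.53%), against 0.235% of flanks and 0.301% of TSS windows, and TAAGCTTA in 10 (1.18%), against 0.118% and 0.285%. The commonest words were A/T words such as AAAATAAA, in 72 summits, against 4.64% of flanks.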
